A study of Mus musculus with 4 samples.

Results

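The genes described here are 10 genes of the unfolded protein response and of protein folding in the endoplasmic reticulum (ER): Hspa5, Hsp90b1, Calr, Pdia3, Pdia4, Pdia6, Herpud1, Xbp1, Atf4 and Ddit3. They were chosen by name, as every probe set whose only annotated gene symbol is one of them, which gave 12 of 12422 probe sets and 10 of 8251 named genes. The data are 4 arrays of spleen RNA from female mice aged 5 months, 2 from Nrf2 knockout animals (nrf2 -/-) and 2 from their wild-type littermates (nrf2 +/+). Both genotypes came from interbreeding heterozygotes, whose wild-type and knockout parents were C57B6/SJL and C57B6/129SVJ, so the littermates had a mixed background. Whether it was alike in both genotypes, above all near the targeted gene, was not tested. Hspa5 and Pdia3 lie on chromosome 2, as does the targeted gene, Nfe2l2. All animals ate a diet containing vitamins A and E, and the labels place the age before severe autoimmune disease. Whether each sample is 1 animal or pooled animals is not in the labels, so p-values cover only sample-to-sample spread here, possibly technical in origin, and precision is limited by the small number of arrays.

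The ER folds secreted and membrane proteins with the help of chaperones and of protein disulfide isomerases, which form and rearrange disulfide bonds. When unfolded proteins build up, the membrane sensors IRE1, PERK and ATF6 start the unfolded protein response. IRE1 splices Xbp1 mRNA, PERK slows translation while favouring that of Atf4, and ATF6 is cut to release a transcription factor. In spleen the pathway is best known from plasma cells, which need XBP1 to secrete antibody. Arrays of this kind report the amount of mRNA and tell neither the splicing of Xbp1 nor the translation of Atf4.

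No difference between knockout and wild-type spleen passed the test for any of these genes. Of their 12 probe sets 9 were bright enough to test, 1 for each gene except Calr, and 0 had a limma adjusted p under 0.05, with 0 also under an unadjusted p of 0.05. Of all 7453 tested probe sets 0.0537% were called and 1.74% had an unadjusted p under 0.05, so counts of 0 among 9 lie near the background. In 6 of the 9 the mean was higher in knockout spleen (Hspa5, Hsp90b1, Pdia3, Pdia6, Herpud1 and Xbp1) and in 3 it was lower (Pdia4, Atf4 and Ddit3), and all 9 had an adjusted p of 0.992. In bulk spleen RNA, fewer cells of a type and less RNA per cell cannot be told apart. Wild-type replicate 1 was at the end of the range for all 9: the 6 genes read lowest in that array and the other 3 read highest in it. Of all tested probe sets 39.2% read lowest in that array, 37.3% highest, and 76.5% were at either end, against 9 of 9 here.

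That array also stood apart over the whole table. Over the tested probe sets, whose genes are not independent replicates, its Pearson correlation with the other 3 arrays was 0.849 to 0.851, against 0.938 to 0.947 among those 3. The Gapdh control probe sets, read at both ends of the transcript to judge RNA quality, gave a 3'-to-5' ratio of 25.5 and 34.8 in the knockout arrays, against 88.3 and 8.07 in wild-type replicates 1 and 2. The same ratio for beta-actin was 19.3 and 16.1 in the knockout arrays, against 14.4 and 8.86 in the wild-type arrays. The part of RNA quality in the values below was not tested. Differences of named ER genes are also given with wild-type replicate 1 left out. That leaves wild-type replicate 2 alone, the array with the lowest ratio for both controls. In those values genotype and RNA quality cannot be told apart. The targeted gene matched the labels: Nfe2l2, the gene of Nrf2, read 202 and 178.6 in the knockout arrays, against 3537 and 6321 in the wild-type arrays (log2 -4.61, SE 0.47, limma adjusted p = 0.0199).

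The promoters are shown as a description. The genes were chosen by name as genes of the unfolded protein response, so motifs of that response are not a feature independent of the choice. The ER stress response element (ERSE), a site bound by ATF6 together with NF-Y, has the letters CCAAT and CCACG with 9 bases of any kind between them, and it was searched on both strands from 250 bases before to 50 bases after each annotated gene start in RefSeq GRCm38.p6. Only 39 of 32851 such windows held it (0.119%), while 4 of the 10 genes did: Hspa5, Hsp90b1, Calr and Pdia6. The related ERSE-II, ATTGG and CCACG with 1 base between them, was in 0.0365% of windows and in Herpud1 among these genes. The stretches with the matches are printed 5′ to 3′ along the gene, with the matches in capitals. Lines name the gene, and the regions in the same order are chr2:34772005-34772063 (plus strand), chr10:86705513-86705676 (minus), chr8:84847055-84847113 (minus), chr12:17266471-17266529 (plus) and chr8:94386357-94386407 (plus), all upstream of the annotated start.
Hspa5: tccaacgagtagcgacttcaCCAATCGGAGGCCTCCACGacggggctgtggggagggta
Hsp90b1: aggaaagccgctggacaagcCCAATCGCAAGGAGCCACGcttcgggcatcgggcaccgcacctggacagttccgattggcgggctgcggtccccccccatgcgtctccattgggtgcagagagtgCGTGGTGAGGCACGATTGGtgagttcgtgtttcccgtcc
Calr: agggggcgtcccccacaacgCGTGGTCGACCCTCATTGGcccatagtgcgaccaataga
Pdia6: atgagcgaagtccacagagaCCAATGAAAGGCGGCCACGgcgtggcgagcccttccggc
Herpud1: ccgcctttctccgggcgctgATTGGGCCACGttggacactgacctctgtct

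The Hspa5 match began 65 bases before the gene start, that of Pdia6 98 bases before it and that of Herpud1 52 bases before it. Hsp90b1 held a pair of matches, at 212 and 107 bases, the nearer one in the antisense orientation, and the Calr match, also antisense, began 162 bases before the start. The antioxidant response element core, the site that Nrf2 binds with small Maf proteins, was searched as TGAC and GC with 3 bases between them. It occurred in 12.4% of all windows and in those of Calr, Pdia3 and Herpud1. The unfolded protein response element, TGACG followed at once by TGG (0.676% of windows), and the C/EBP-ATF element, TGATG and AAT with 1 base between them (0.965%), were in none of the 10 windows. A match is a description of these letters and not a bound site, and ERSE and ERSE-II share letters without overlapping in these genes.

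**Figure D1:**
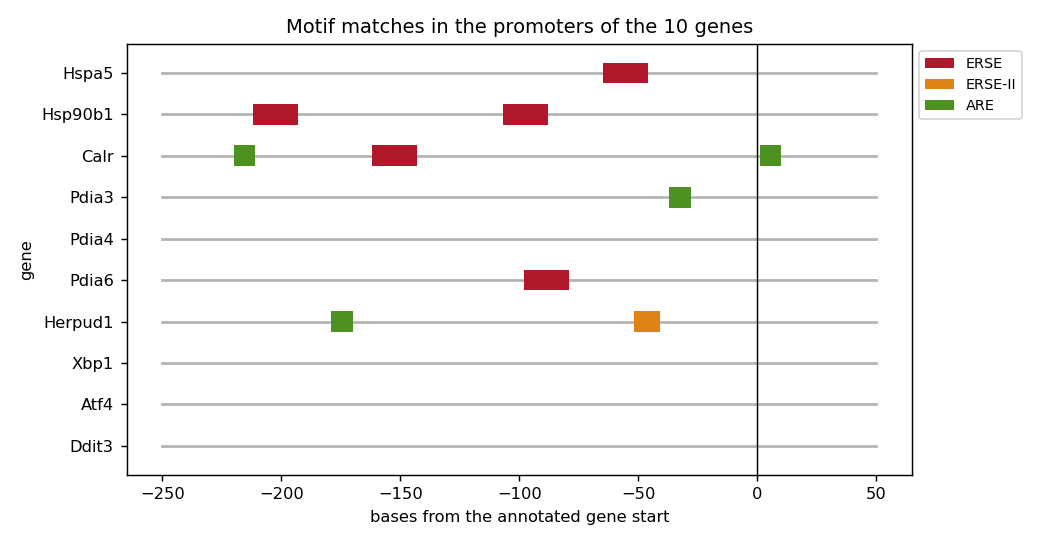
Motif matches in the promoter windows of the 10 genes, in bases from the annotated gene start (0). ERSE matches lie in Hspa5, Hsp90b1, Calr and Pdia6, the ERSE-II match in Herpud1, and antioxidant response element cores (ARE) in Calr, Pdia3 and Herpud1; lines without boxes held none of the 5 motifs searched.

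Among the chaperones, Hsp90b1 had the larger difference. It encodes GRP94, the HSP90 of the ER, which folds client proteins such as Toll-like receptors and integrins. Its probe set 160499_at read 59885 and 45708 in the knockout arrays, against 15182 and 38981 in the wild-type arrays. Both knockout arrays lay above both wild-type arrays, and wild-type replicate 1 was far below the rest. The estimated log2 difference was 1.10 (SE 0.55, 95% confidence interval -0.16 to 2.37, n = 2 per group), a 2.15-fold higher mean. Leaving out wild-type replicate 1 gave 0.42 and leaving out wild-type replicate 2 gave 1.78, and the spread between the wild-type arrays, 2.57-fold, exceeded the difference between genotypes.

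Hspa5 encodes BiP (GRP78), the HSP70 of the ER, which binds unfolded chains, restrains the sensors and is the usual readout of the response. Its probe set 101955_at read 37904.5 and 27216 in the knockout arrays, against 22159 and 28562 in the wild-type arrays. The genotypes overlapped, since knockout replicate 2 lay below wild-type replicate 2. The log2 difference was 0.35 (SE 0.44, 95% confidence interval -0.66 to 1.36), and 0.17 without wild-type replicate 1. The upper bound of that interval leaves room for a rise of more than 2-fold, so these arrays do not show that BiP mRNA was equal in the genotypes.

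Calr encodes calreticulin, the calcium-binding lectin chaperone of the ER lumen. Its only probe set, 93523_at, read 265.7 and 15.2 in the knockout arrays, against 28.1 and 21.4 in the wild-type arrays. Of these values 3 lay below the floor of 185, the 25th percentile of all intensities, to which lower values were raised before log2 was taken. It was therefore not tested, no fold is given, and this probe set gives no usable measure of Calr.

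**Figure D2:**
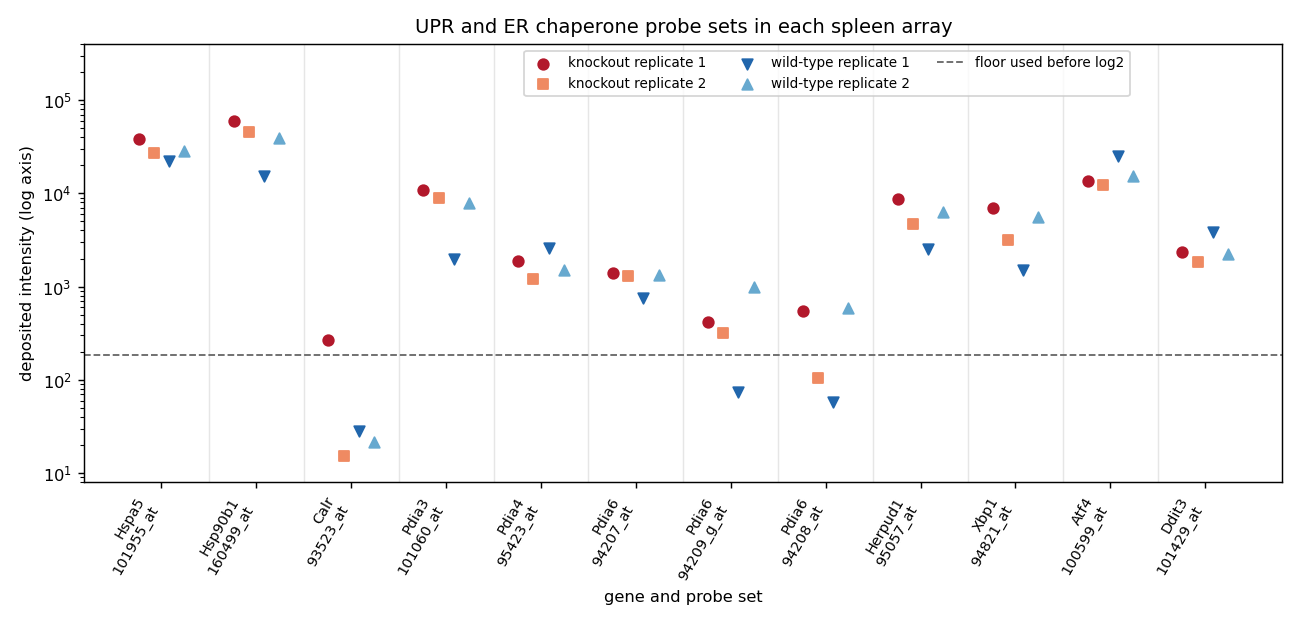
Deposited intensity (log axis) of all 12 probe sets in each array, knockout arrays to the left of wild-type arrays, 1 point per array; the dashed line is the floor of 185. Wild-type replicate 1 (dark blue) is the lowest point for Hspa5, Hsp90b1, Pdia3, Herpud1, Xbp1 and all 3 Pdia6 probe sets, and the highest for Pdia4, Atf4 and Ddit3.

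The disulfide isomerases did not share a direction. Pdia3, or ERp57, works on glycoproteins with calreticulin and calnexin and also loads MHC class I molecules with peptide. On probe set 101060_at it read 10845 and 9028 in the knockout arrays, against 2002 and 7978 in the wild-type arrays. The genotypes were separate, but wild-type replicate 2 lay close under the knockout arrays while wild-type replicate 1 was far below. That difference, 1.31 (SE 0.64, 95% confidence interval -0.16 to 2.78), a 2.48-fold higher mean, was the largest among the 9 and was 0.31 without wild-type replicate 1. Between the wild-type arrays the level differed 3.99-fold.

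Pdia4, or ERp72, an isomerase with an additional catalytic domain, went the other way. It read 1861 and 1193 in the knockout arrays, against 2602 and 1514 in the wild-type arrays (probe set 95423_at), and the genotypes overlapped. Its log2 difference was -0.41 (SE 0.46, 95% confidence interval -1.48 to 0.65), and -0.02 without wild-type replicate 1.

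Pdia6, or P5, which binds BiP and also dampens IRE1 and PERK, had 3 probe sets. The tested one, 94207_at, read 1402.5 and 1293 in the knockout arrays, against 755.2 and 1333 in the wild-type arrays, so that 3 arrays were alike and wild-type replicate 1 was low. Its log2 difference was 0.42 (SE 0.45, 95% confidence interval -0.62 to 1.47), and 0.02 without wild-type replicate 1. The other two were too dim to test and disagreed with it in the order of the remaining arrays: 94209_g_at read 420 and 314.4 in the knockout arrays, against 73.7 and 1001 in the wild-type arrays, and 94208_at read 551.3 and 103.6 in the knockout arrays, against 57.6 and 588.2 in the wild-type arrays. On all 3 probe sets wild-type replicate 1 was lowest, while on both dim ones wild-type replicate 2 was highest.

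Herpud1 encodes HERP, an ER membrane protein that helps to assemble the degradation machinery for misfolded proteins and is strongly induced by ER stress. On probe set 95057_at it read 8693 and 4680 in the knockout arrays, against 2557 and 6334 in the wild-type arrays. Each genotype held a higher and a lower array, and the ranges overlapped. The log2 difference of 0.66 (SE 0.55, 95% confidence interval -0.61 to 1.94) became 0.01 without wild-type replicate 1.

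Of the transcription factors, Xbp1, the factor made active by IRE1 splicing and needed for antibody secretion, read 6969 and 3187 in the knockout arrays, against 1516 and 5552 in the wild-type arrays (probe set 94821_at). The spread within each genotype was wide, 2.19-fold between the knockout arrays and 3.66-fold between the wild-type arrays, and the ranges overlapped. Its log2 difference was 0.70 (SE 0.67, 95% confidence interval -0.85 to 2.25). Without wild-type replicate 1 the sign turned, to -0.24.

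Atf4, the factor translated when PERK or a related kinase phosphorylates eIF2α, which drives amino acid supply and antioxidant genes, was the only tested gene here whose knockout arrays both lay below both wild-type arrays. It read 13649 and 12187 in the knockout arrays, against 25121 and 15391 in the wild-type arrays (probe set 100599_at). The knockout arrays were close to each other, at 1.12-fold. The log2 difference was -0.61 (SE 0.44, 95% confidence interval -1.62 to 0.40), and -0.26 without wild-type replicate 1.

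Ddit3 encodes CHOP, a target of ATF4 that promotes cell death under lasting ER stress. On probe set 101429_at it read 2359 and 1840 in the knockout arrays, against 3853 and 2222 in the wild-type arrays, and knockout replicate 1 lay above wild-type replicate 2. The log2 difference was -0.49 (SE 0.44, 95% confidence interval -1.50 to 0.52), and -0.09 without wild-type replicate 1. Atf4, Ddit3 and Pdia4 thus had the same order of wild-type arrays, the reverse of that of the other 6 tested genes, which include Xbp1 and Herpud1.

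Over the 9 tested probe sets the median log2 difference was 0.42, against 0.04 for all tested probe sets. Leaving out knockout replicates 1 and 2 in turn gave 0.14 and 0.59, and leaving out wild-type replicates 1 and 2 gave 0.01 and 0.83. The groups did not overlap in 3 of 9, with 2 higher and 1 lower, against 26.4% of all tested probe sets (14.3% higher and 12.2% lower). The knockout arrays also differed in order: knockout replicate 1 exceeded knockout replicate 2 in 9 of 9, by a median of 0.39 on the log2 scale, while 50.8% of all tested probe sets did so.

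**Figure D3:**
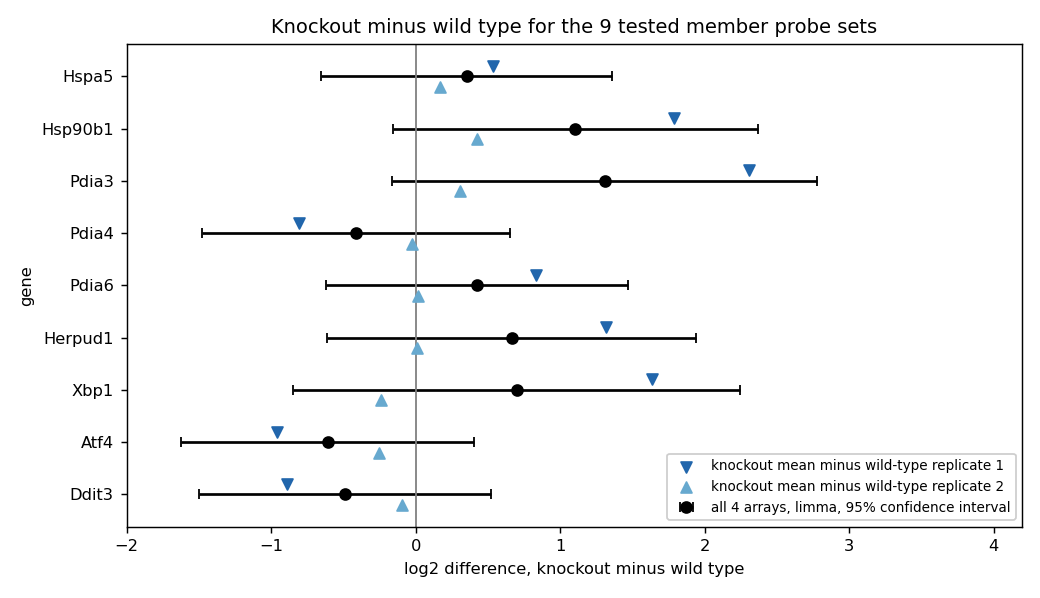
Log2 difference, knockout minus wild type, of the 9 tested probe sets: black points and bars are the limma estimate with its 95% confidence interval from all 4 arrays, triangles the knockout mean minus each wild-type array. All 9 intervals include 0, and the differences from wild-type replicate 2 lie between -0.26 and 0.42.

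The other genes of the pathway were read from 5 lists. None of their tested probe sets passed the adjusted threshold, and only Slc1a4, named below, had an unadjusted p under 0.05. For other ER folding genes, 22 of 34 tested probe sets had a higher mean in knockout spleen and 12 a lower one (median 0.19). For ER-associated degradation the numbers were 12 and 6 (median 0.19), and for translocation into the ER and glycosylation 27 and 12 (median 0.13). The sensors and their feedback genes measured higher in 4 and lower in 7 cases (median -0.12), and targets of ATF4 and CHOP in 18 and 15 (median 0.02). Of all tested probe sets 53.7% measured higher. Without wild-type replicate 1 the 5 medians, in the same order, were 0.02, -0.03, 0.03, -0.003 and 0.05. The sign for ATF4 and CHOP targets turned under median centring (-0.04) and quantile normalization (-0.06), and without knockout replicate 2 (-0.10) or wild-type replicate 2 (-0.18). That for the sensors turned without knockout replicate 1 (0.01).

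Several named ER genes, like the 6 genes above, read lowest in wild-type replicate 1, and their differences were smaller with that array left out. Manf, a secreted ER stress protein that binds BiP, read 16702 and 14495 in the knockout arrays, against 5656 and 12605.5 in the wild-type arrays (log2 0.88, SE 0.49, and 0.30 with wild-type replicate 1 left out). Creld2, a disulfide isomerase-like stress protein, read 8905 and 5416 in the knockout arrays, against 3373 and 5184 in the wild-type arrays (log2 0.73, SE 0.45, and 0.42 with that array left out). In both the knockout arrays lay above the wild-type arrays.

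Sel1l, the adaptor of the HRD1 degradation complex, read 4414 and 3300 in the knockout arrays, against 1168 and 2639 in the wild-type arrays on one probe set (log2 1.12, SE 0.49, and 0.53 with wild-type replicate 1 left out). The other Sel1l probe set read 4255 and 4414 in the knockout arrays, against 4132 and 3357 in the wild-type arrays (log2 0.22, and 0.37 with it left out), so the probe sets disagreed on wild-type replicate 1. Edem1, which delivers glycoproteins for degradation, differed by 0.73 with overlapping groups, and by 0.26 with that array left out. The ATF6 sensor gene, Atf6, read 2385 and 1802 in the knockout arrays, against 943.2 and 1783.5 in the wild-type arrays (log2 0.68, SE 0.46, and 0.22 with it left out). Its lower knockout array lay only narrowly above wild-type replicate 2.

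Calu, a calcium-binding protein of the secretory pathway, differed by 1.31 (SE 0.81) with overlapping groups, and wild-type replicate 1 read 699.9 against 3696 to 5585 in the other 3 arrays. With that array left out the sign turned, to -0.09. Srp9, Srpr and Sec62, which take part in targeting and moving proteins into the ER, differed by 0.95, 0.88 and 0.84, and each read lowest in wild-type replicate 1. With it left out they differed by 0.17, 0.03 and 0.19. The other tested Sec62 probe set differed by 0.10, and by -0.08 with that array left out. Eif2b5, a subunit of the exchange factor that phosphorylated eIF2 inhibits, and Traf2, the adaptor that IRE1 recruits, differed by -0.58 and -0.54 and read highest in the same array, and with it left out by -0.24 and -0.03.

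Among targets of ATF4 and CHOP, the neutral amino acid transporter gene Slc1a4 read 752.8 and 218.6 in the knockout arrays, against 1350.5 and 1107 in the wild-type arrays (log2 -1.59, SE 0.64, unadjusted p = 0.0381, limma adjusted p = 0.992). With wild-type replicate 1 left out the log2 difference was -1.45. Both knockout arrays were lower, and they differed from each other by more than the wild-type arrays did. Atf3 and Cebpd, stress-induced transcription factors, differed by 0.91 each, with knockout arrays above wild-type arrays, and by 0.62 and 0.14 with that array left out; the name of the Atf3 probe set marks possible cross-hybridisation. Nfe2l1, which encodes the ER-anchored relative of Nrf2 and is on the degradation list, read 204.5 and 587.6 in the knockout arrays, against 915.2 and 677.9 in the wild-type arrays on one probe set (log2 -1.18, SE 0.63, and -0.97 with wild-type replicate 1 left out). Its other probe set differed by 0.25, a sign that turned, to -0.25, with that array left out.

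**Figure D4:**
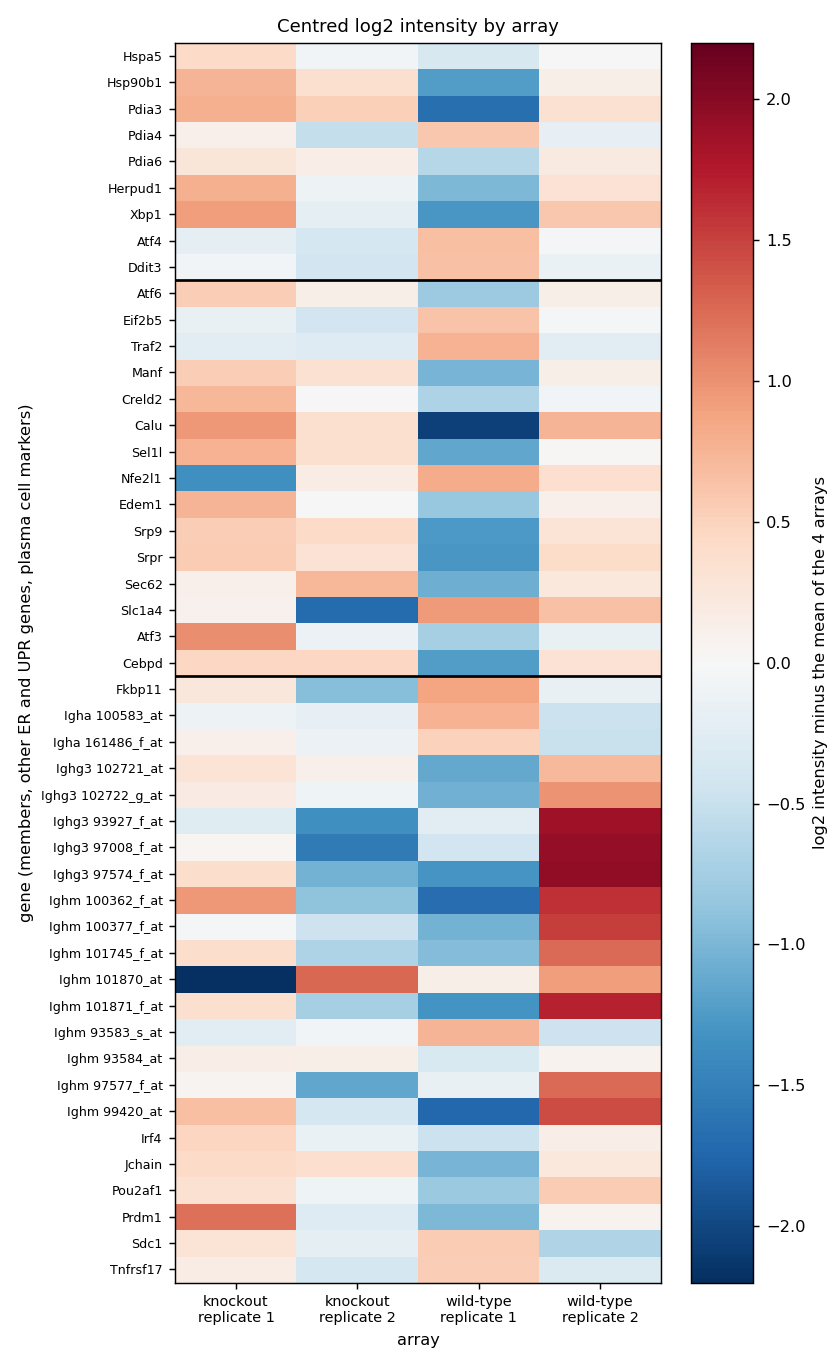
Log2 intensity of each probe set minus its mean over the 4 arrays, knockout arrays on the left: the 9 tested probe sets at the top, the named genes of the 5 other ER and unfolded protein response lists in the middle, and all 23 tested probe sets for plasma cell markers at the bottom. The column of wild-type replicate 1 holds the deepest blue for Pdia3 and Calu among the ER genes, and red for Pdia4, Atf4, Ddit3, Eif2b5 and Traf2.

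**Figure D5:**
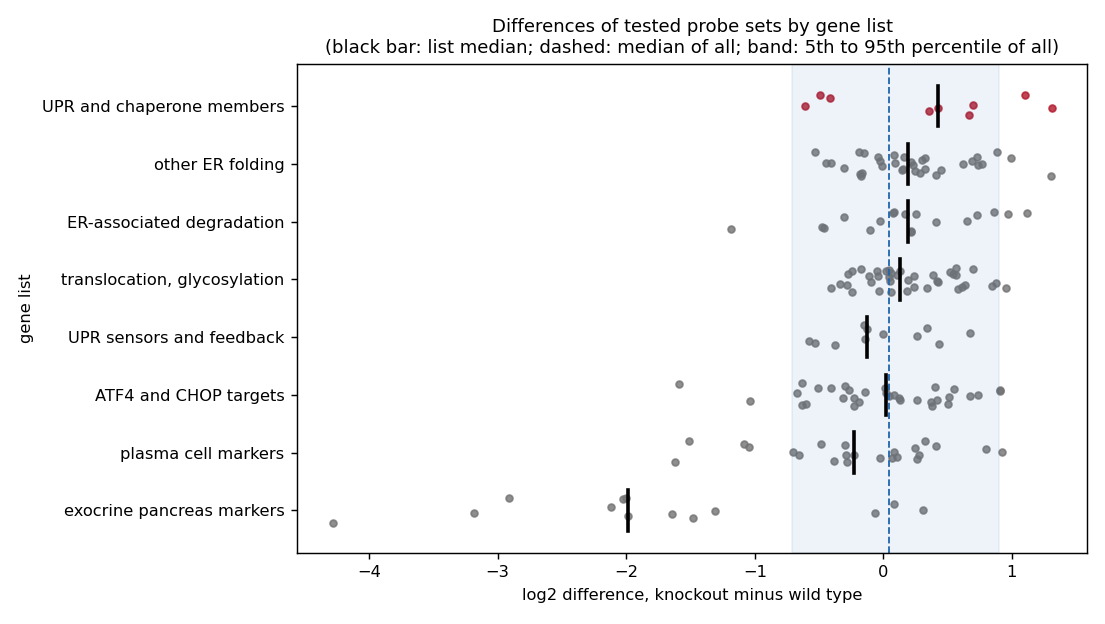
Log2 difference, knockout minus wild type, of each tested probe set by gene list; black bars are list medians, the dashed line the median of all tested probe sets (0.04) and the band their 5th to 95th percentiles (-0.71 to 0.90). Hsp90b1 and Pdia3 lie to the right of the band, and the exocrine pancreas markers lie far to the left with a median of -1.99.

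Genes with ERSE or ERSE-II in the promoter window were also described as a set, which was formed after the values were seen. Of 49 such genes 17 had tested probe sets, 21 in all. In knockout spleen 14 of these measured higher and 7 lower (median 0.25), and 0 passed the adjusted threshold. Outside the 10 genes the numbers were 10 and 7 (median 0.14), with 8 of 17 lowest in wild-type replicate 1. The chaperone gene Canx, which encodes calnexin, is in this set, and its probe sets differed by 0.16 and -0.45. With wild-type replicate 1 left out they differed by -0.03 and -0.26, so the sign of the former turned. The cochaperone gene Dnajb11 read 7710 and 5837 in the knockout arrays, against 5815 and 4926 in the wild-type arrays (log2 0.33, SE 0.40). Its log2 difference was 0.45 with wild-type replicate 1 left out.

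By nearness to the Hspa5 profile, the root mean square distance between log2 values centred over the 4 arrays, the closest genes were Ccl1 (0.03), Ifi207 (0.03) and Ifit3 (0.04). With 4 arrays this nearness is a description only.

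Plasma cells and exocrine pancreas, which hold much ER, were followed by their marker genes. Of 23 tested probe sets for plasma cell markers, 10 measured higher and 13 lower in knockout spleen (median -0.23), and 0 were called. Their summed intensity over 37 probe sets was 611828 to 620372 in knockout and 636032 to 779812 in wild-type spleen, most of it immunoglobulin signal; no defining marker was at 0, though some probe sets lay below the floor. Of the 23 probe sets 13 read lowest in wild-type replicate 1, as 6 of the 9 chaperone and response genes did. Otherwise the order of arrays was mixed. Of the 23, 12 read highest in wild-type replicate 2 and 4 in knockout replicate 1. Of the 9 genes 0 read highest in wild-type replicate 2 and 6 in knockout replicate 1. Of all 7453 tested probe sets 1458 read highest in wild-type replicate 2 and 1547 in knockout replicate 1. The summed intensity of the plasma cell markers was highest in wild-type replicate 1. So was the sum over all 12422 probe sets, 56496853 there against 44864829 to 46460833 in the other arrays. The higher marker sum is therefore not particular to plasma cell markers. With wild-type replicate 1 left out the median difference of the list was -0.51.

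The brightest of these probe sets, 1 of 9 tested for Ighm, the heavy chain of IgM, read 160236 and 179228 in the knockout arrays, against 313353 and 136730 in the wild-type arrays (log2 -0.29, and 0.31 with wild-type replicate 1 left out). The following markers were picked after their values were seen. The brighter probe set of Igha, the heavy chain of IgA, read 167451 and 158985 in the knockout arrays, against 306724 and 130877 in the wild-type arrays (log2 -0.30, and 0.32 with that array left out). These Ighm and Igha probe sets were thus highest in wild-type replicate 1, the array with the lowest Xbp1 signal. The brightest Ighg3 heavy chain probe set read 58637 and 51726 in the knockout arrays, against 21872 and 78541 in the wild-type arrays. It was lowest in wild-type replicate 1 (log2 0.41, and -0.51 with that array left out). Of the 23 tested plasma cell marker probe sets 13 read lowest and 6 highest in wild-type replicate 1.

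Tnfrsf17, which encodes the survival receptor BCMA, read 2473 and 1683 in the knockout arrays, against 3214.5 and 1777 in the wild-type arrays (log2 -0.23, and 0.20 with that array left out). Fkbp11, an ER prolyl isomerase gene, read 2809 and 1236 in the knockout arrays, against 4317 and 2121 in the wild-type arrays (log2 -0.70, and -0.19 with it left out). The surface marker gene Sdc1 read 789.1 and 563.9 in the knockout arrays, against 944.4 and 408.1 in the wild-type arrays. Both knockout values of Sdc1 lay between the wild-type values, above that of wild-type replicate 2. These 3 markers were highest in wild-type replicate 1.

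Other markers were lowest there. Jchain, which joins polymeric antibodies, read 59849 and 57722 in the knockout arrays, against 21863 and 51990 in the wild-type arrays (log2 0.80, and 0.18 with wild-type replicate 1 left out). Prdm1, which encodes the plasma cell regulator Blimp-1, read 1616 and 576.7 in the knockout arrays, against 353.2 and 737.3 in the wild-type arrays (log2 0.92, and 0.39 with it left out). Plasma cell markers therefore disagreed on wild-type replicate 1, and the part of plasma cell content in the chaperone values was not tested.

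Markers of exocrine pancreas were mostly highest in wild-type replicate 1. Of 13 tested marker probe sets 2 measured higher and 11 lower in knockout spleen (median -1.99), and 11 read highest in wild-type replicate 1. Their summed intensity over 20 probe sets was 15638 to 20382 in knockout and 29773 to 106275 in wild-type spleen, led by Prss2, which encodes a trypsinogen, at 653.1 and 586.9 in the knockout arrays, against 28520 and 5090 in the wild-type arrays (log2 -4.28, and -3.04 with wild-type replicate 1 left out). The array with the highest pancreas signal was thus the one with the lowest Hspa5, Hsp90b1, Pdia3, Herpud1 and Xbp1 signal, and with the highest Pdia4; the part of pancreas RNA in these values was not tested.

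The remaining marker lists match the labelled tissue, with tested probe sets for 13 B cell, 14 T cell and 11 macrophage genes. B and T cell markers had medians of -0.48 and -0.50, macrophage markers 0.20, neutrophil markers 0.96 and erythroid markers -0.55, with 0 called in each. Their brightest probe sets were those of Ms4a1, Zap70, C1qb, S100a8 and Hba-a1. Of the erythroid probe sets 18 of 20 read lowest in knockout replicate 1, the array in which 6 of the 9 chaperone and response genes read highest. Of all 7453 tested probe sets 1395 read lowest and 1547 highest in that array. The part of red cell content in these values was not tested.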

How the data were processed

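Per the labels, total RNA of 4 spleen samples was measured, 1 column of values each. The authors deposited intensity values on a linear scale, 1 per probe set and array; the sources used here give neither software nor scaling. The 2% trimmed means were 2501.5 to 2502.0, so no further scaling was applied. The 66 control probe sets were left out, values under the pooled 25th percentile (185) were raised to it, and log2 was taken, which understates differences of dim genes. Probe sets with a mean above the 40th percentile were tested. Symbols came from the platform annotation, updated by gene identifier (10817 of 10833 matched).

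Genotypes were compared by limma 3.58.1 under R 4.3.3 (lmFit, eBayes with trend, two-sided, Benjamini-Hochberg over 7453 probe sets at 0.05), without a replicate block. The procedure was tested on simulated data. Unlike the real arrays, these gave every probe set the same spread and held no array that stood apart. Lists are described by counts and medians. Named genes are all 10 genes, Nfe2l2 and up to 3 probe sets with the smallest p in each ER list. Also named are the brightest probe set of each marker list and the 3 nearest to Hspa5. Jchain, Prdm1, Igha, Ighg3, Tnfrsf17, Fkbp11, Sdc1, Canx, Dnajb11 and second probe sets were added after their values were seen. Members and lists were chosen with earlier results of these data known. Promoters were from RefSeq (GRCm38.p6; all 10 genes matched). Alternatives covered scaling, floor, filter, variance model, array weights, replicate block, cross-hybridising probe sets, threshold and each array left out.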

Additional observations from a re-analysis of the deposited data

How the results depend on the processing

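None of the 9 probe sets passed at an adjusted p of 0.05 in the fit of all arrays or under any alternative run, and 0 passed at 0.10 in that fit. The lowest adjusted p among them was 0.0583, for Hsp90b1 and Pdia3 without wild-type replicate 2. Directions held for each in every alternative except Xbp1, which ranged from -0.24 (wild-type replicate 1 left out) to 1.64 (wild-type replicate 2 left out). With 1 array left out their median ranged from 0.01 to 0.83. The count over all probe sets, 4, became 0 when dim probe sets were kept, 2 without cross-hybridising probe sets, 7 at an adjusted p under 0.10 and 3 to 13 with 1 array left out (10 and 13 without knockout replicates 1 and 2). With the replicate number as a block it was 36, with 0 of the 9 among them; the labels do not pair samples by number, and deviations of equal numbers correlated at 0.04. The 60th percentile filter left 8 of the 9. Fits with 1 array in a group assume that it varies like the other group. The causes were not tested.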
